A study of Rattus norvegicus with 75 samples.

Results

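The genes described here are 39 genes of lysosomal enzymes and membrane proteins, out of 32754 in the deposited table. They were taken by symbol: 8 cathepsins, 2 other proteases, 10 glycosidases, 3 sulfatases, 7 lipid-handling proteins, 7 membrane proteins, progranulin and Tfeb itself. Each of the 39 symbols matched a row, and each of the 39 passed the filter on low values in the 9 comparisons made.

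Lysosomes are acid compartments in which proteases, glycosidases, sulfatases and lipid-handling proteins break down material from endocytosis and autophagy, inside a membrane protected by heavily glycosylated proteins such as LAMP-1 and LAMP-2. Many of these genes are controlled together by the transcription factor TFEB, which binds a short element built around CACGTG and leaves the nucleus when mTORC1 is active on the lysosome. In the collecting duct, lysosomes receive the water channel aquaporin-2 after it is taken back from the cell surface.

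Messenger RNA was sequenced from kidney tubule segments that had been microdissected manually; the donors were Sprague-Dawley rats, male, weighing 120 to 160 g. The cortical collecting duct (CCD) holds principal cells, the site of vasopressin-regulated water uptake, along with the intercalated cells of acid-base transport; the cortical thick ascending limb (cTAL) takes up salt without water. Lithium rats received LiCl in their diet, 40 mM per kg food, and control rats the diet alone. For control CCD there were 3 libraries each after 12, 24 and 36 h and 17 after 72 h; for lithium CCD there were 2 after 12 h, 3 each after 24 and 36 h, and 19 after 72 h. All cTAL libraries, 12 control and 10 lithium, were taken after 72 h. Which libraries share a rat is not stated in the labels, so each p-value reflects library-to-library spread alone, and that spread may be technical. Lithium was given to the whole animal, not to the segments alone.

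Libraries carried the markers of their labelled segment: in controls at 72 h, the summed level of 12 principal cell markers was 12330 to 20456 TPM in CCD and 873 to 1848 in cTAL, and that of 9 thick ascending limb markers was 215 to 367 in CCD and 52841 to 88712 in cTAL. TPM is a relative level corrected for transcript length, scaled to the same total in each library, so levels of different genes can be set side by side and the depth of a library is unknown. In bulk tubule, fewer cells of a type and less RNA per cell cannot be told apart. Libraries of a group fell into sets that shared a pattern of 7 genes whose levels fell into a high and a low state. Each group at 72 h held 4 sets, and each group at 12, 24 and 36 h was a single set. The labels do not say what a set is. At 72 h a set held from 1 library (control cTAL set 1) to 6 (lithium CCD set 1). In 12 libraries more genes for short RNAs were detected than in the others: 4 lithium CCD, 4 control cTAL and 3 lithium cTAL libraries at 72 h, which each formed the last set, set 4, of their group, and replicate 1 of lithium CCD at 12 h.

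Promoters were searched for the TFEB element after 14 of the genes were seen to differ among control CCD groups. Whether TFEB had a part in these differences was not tested. RefSeq promoters (build GRCr8, 250 bases before to 50 after the start of a gene, both strands) matched 32 of the 39 genes by symbol. Ctsb, Hexa, Arsa, Arsb, Asah1, Psap and Ppt1 had no match and were not searched. The core CACGTG was found in 8 of the 32, against 6.42% of all 33469 promoters, and TCACGTG, which contains the core, in 7 of the 32, against 3.2% of all. A longer form of the element, 10 bases that contain TCACGTG, was also searched and was found in 0 of the 32, against 0.233% of all. All matches in these genes were therefore to the shorter forms. At so low a share in all promoters, 0 of 32 does not set these genes apart from the rest. A promoter without a match says only that these letters are not in this window. A match shows the letters and not which protein binds them. The 7 genes with TCACGTG were Lamp1, Ctsd, Gaa, Mcoln1, Cln3, Glb1 and Sgsh, and the eighth with the core alone was Cd63. Levels of 5 of them differed among control CCD groups, and 4 of these 5 are shown, without Glb1. Shown are the 200 bases before the start, in the direction of the gene, with CACGTG and TCACGTG on either strand in capitals. Lamp1 (chr16:83075064-83075263, minus strand) carried 5 cores, Ctsd (chr1:206968822-206969021, minus strand) carried 2, and Gaa (chr10:105028155-105028354, plus strand) and Mcoln1 (chr12:6358058-6358257, plus strand) carried 1 each in the bases shown.
Lamp1: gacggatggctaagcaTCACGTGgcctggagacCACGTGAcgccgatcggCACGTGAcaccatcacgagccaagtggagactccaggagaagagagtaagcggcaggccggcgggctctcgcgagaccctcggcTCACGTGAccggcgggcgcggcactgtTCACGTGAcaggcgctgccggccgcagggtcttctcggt
Ctsd: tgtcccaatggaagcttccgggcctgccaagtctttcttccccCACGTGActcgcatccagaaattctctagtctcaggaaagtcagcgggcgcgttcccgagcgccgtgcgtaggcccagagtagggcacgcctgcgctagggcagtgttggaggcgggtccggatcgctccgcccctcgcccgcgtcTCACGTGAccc
Gaa: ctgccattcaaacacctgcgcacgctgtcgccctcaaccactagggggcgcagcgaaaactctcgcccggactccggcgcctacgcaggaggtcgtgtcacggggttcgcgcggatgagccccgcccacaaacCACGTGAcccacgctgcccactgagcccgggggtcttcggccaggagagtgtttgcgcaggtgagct
Mcoln1: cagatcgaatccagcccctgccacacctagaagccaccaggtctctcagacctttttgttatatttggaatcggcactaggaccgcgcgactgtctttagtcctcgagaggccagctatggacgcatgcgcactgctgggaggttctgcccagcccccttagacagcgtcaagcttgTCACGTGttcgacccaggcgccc
The 5 cores of Lamp1 began 183, 167, 150, 65 and 38 bases before its start. Those of Ctsd began 157 and 10 bases before it, so 1 lay next to the start and the other further upstream.

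The lysosomal genes covered a wide range of levels. In control CCD at 72 h, Ctsd, the main aspartic protease of lysosomes, had the highest level at 3308 ± 862 TPM (SD, n = 17) and ranked 23 among all genes. Ctsh, a cysteine aminopeptidase, followed at 1966 ± 297 TPM, and Cd63, a tetraspanin of late endosomes and lysosomes, at 1940 ± 229 TPM. The means of Ctsh and Cd63 lay within 1 SD of each other. Psap, the precursor of the saposins, stood at 905 ± 129 TPM and Lamp1 at 868 ± 113 TPM. At the other end were Npc1, the cholesterol exporter of the lysosomal membrane, at 14.9 ± 4.82 TPM, Ctss at 3.55 ± 2.10 TPM and Sgsh, a sulfamidase of heparan sulfate breakdown, at 1.90 ± 1.27 TPM. In control cTAL at 72 h the order was another: Cd63 was first at 3522 ± 439 TPM (SD, n = 12), Ctsb next at 640 ± 99.8 TPM, and Ctsd followed Psap at 510 ± 76.9 TPM. The 39 genes together made up a median of 15400 TPM in control CCD and 9081 TPM in control cTAL, with libraries from 12271 to 19202 in the former and from 7912 to 9946 in the latter.

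The clearest pattern of the lysosomal genes was the difference between segments. In controls at 72 h, 29 of the 39 were higher in CCD than in cTAL and 6 were lower at an adjusted p under 0.05 in limma on log2(TPM + 1). That is 89.7% of the genes described, against a background of 68.4% of all genes tested (49.8% higher, 18.6% lower). Their median difference was a log2 of 0.64, beside 0.28 for all genes tested. In 16 genes no CCD library overlapped a cTAL library, 14 of them higher in CCD, where 14.5% of all genes tested had no overlap. Each pair of values below is on the TPM scale, and each difference on the log2(TPM + 1) scale, CCD minus cTAL.

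Among the proteases, Ctsd ran from 2313 to 5137 TPM in the 17 control CCD libraries (median 3017) and from 390 to 643 in the 12 control cTAL libraries (median 534). Every CCD library was above every cTAL library, and the log2 difference was 2.67 (SE 0.10, adjusted p 1.2e-33 in limma). Ctsh ran from 1374 to 2499 TPM (median 1950) in CCD and from 195 to 339 (median 304) in cTAL, again without overlap, with a log2 difference of 2.74 (SE 0.07). The endopeptidase Ctsl was higher by 1.55 (SE 0.09), the dipeptidyl peptidase Ctsc by 1.28 (SE 0.07) and the asparaginyl endopeptidase Lgmn by 1.22 (SE 0.08), none with overlap. Tpp1, a tripeptidyl peptidase, was higher by 0.64, and Ctsb, a cysteine protease, by 0.30. Ctsa, the carboxypeptidase that also protects beta-galactosidase and sialidase 1, did not pass the test, with 318 ± 38.5 TPM in CCD and 336 ± 67.2 in cTAL.

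Ctss and Ctsz went the other way. Ctss, a cysteine protease prominent in antigen-presenting cells, ran from 0.91 to 9.98 TPM (median 3.56) in control CCD and from 21.4 to 73.7 (median 44.3) in control cTAL, and its log2 difference was -3.33 (SE 0.22, adjusted p 1.5e-20 in limma). No library overlapped. Ctsz, a carboxypeptidase, was lower in CCD by a log2 of -1.46 (SE 0.15), with 16 of 17 CCD libraries below all cTAL libraries. Beside these 2 genes, leukocyte markers also moved: the summed level of 15 markers was 38.9 to 676 TPM in control CCD and 2211 to 6727 in control cTAL, 13 of 14 tested were lower in CCD, and none was at 0 in all libraries of either group. Endothelial markers were lower in CCD in 10 of 10 tested, with sums of 28.1 to 270 TPM against 260 to 746 in cTAL, and proximal tubule markers in 8 of 11, with sums of 90.6 to 797 against 847 to 1749. The part of these cell types in the lysosomal differences between segments was not tested.

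Lipid-handling proteins were higher in CCD in 7 of 7 genes. Gm2a, the activator that presents GM2 ganglioside for breakdown, had the largest positive difference of the 39, a log2 of 2.98 (SE 0.19, adjusted p 1.8e-21 in limma), from 281 to 499 TPM (median 354) in CCD and from 28.3 to 55.7 (median 44.9) in cTAL. Groups did not overlap. The glycosidase Hexa, which acts on that ganglioside, was higher by 1.14 (SE 0.07). Npc2, the soluble carrier that hands cholesterol to Npc1, was higher by 1.76 (SE 0.06) and Npc1 by 1.83 (SE 0.14) on the log2(TPM + 1) scale, which understates low genes and, for Npc1 at under 30 TPM, falls by more than 1.5 times with a pseudocount of 5. Lipa, the acid lipase that frees this cholesterol, was higher by 1.51 (SE 0.14). Psap, Ppt1, Smpd1 and Asah1 were higher by 0.70, 0.60, 0.55 and 0.38.

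Of the 10 glycosidases, 8 were higher in CCD and 1 was lower. Gla, the alpha-galactosidase A that removes the end sugar of globotriaosylceramide, ran from 142 to 210 TPM (median 183) in CCD and from 20.7 to 34.3 (median 26.6) in cTAL, a log2 difference of 2.73 (SE 0.10, adjusted p 3.3e-34 in limma) with no overlap. Man2b1 and Manba, alpha- and beta-mannosidase, were higher by 0.93 and 0.83, and Gaa, which breaks down glycogen, by 0.69. Neu1, Fuca1 and Gusb were higher by 0.46, 0.39 and 0.35. Glb1, beta-galactosidase, was lower in CCD by -0.41, at 81.0 ± 10.9 TPM against 110 ± 25.3 in cTAL. Naglu did not pass the test. The sulfatases were not higher in CCD: Arsb and Arsa were lower by -0.58 and -0.22, and Sgsh, near 2 TPM in both segments, did not pass.

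Membrane proteins split. Lamp1 ran from 628 to 1043 TPM (median 855) in CCD and from 214 to 449 (median 350) in cTAL, a log2 difference of 1.35 (SE 0.08) with no overlap, and Lamp2 was higher by 0.76 (SE 0.06), also with no overlap. Scarb2 (LIMP-2, the carrier of glucocerebrosidase) and Cln3 were higher by 0.86 and 0.46. Cd63 was lower in CCD by -0.86 (SE 0.08), from 1391 to 2219 TPM against 2921 to 4134, so the 2 major LAMP genes and the tetraspanin differed in opposite directions, each without overlap. Mcoln1, the calcium channel TRPML1, did not pass the test (49.9 ± 6.86 and 55.6 ± 11.0 TPM). Grn, progranulin, was higher by 0.68 and Tfeb by 0.42, at 42.9 ± 4.61 TPM in CCD and 32.4 ± 7.79 in cTAL.

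**Figure D1:**
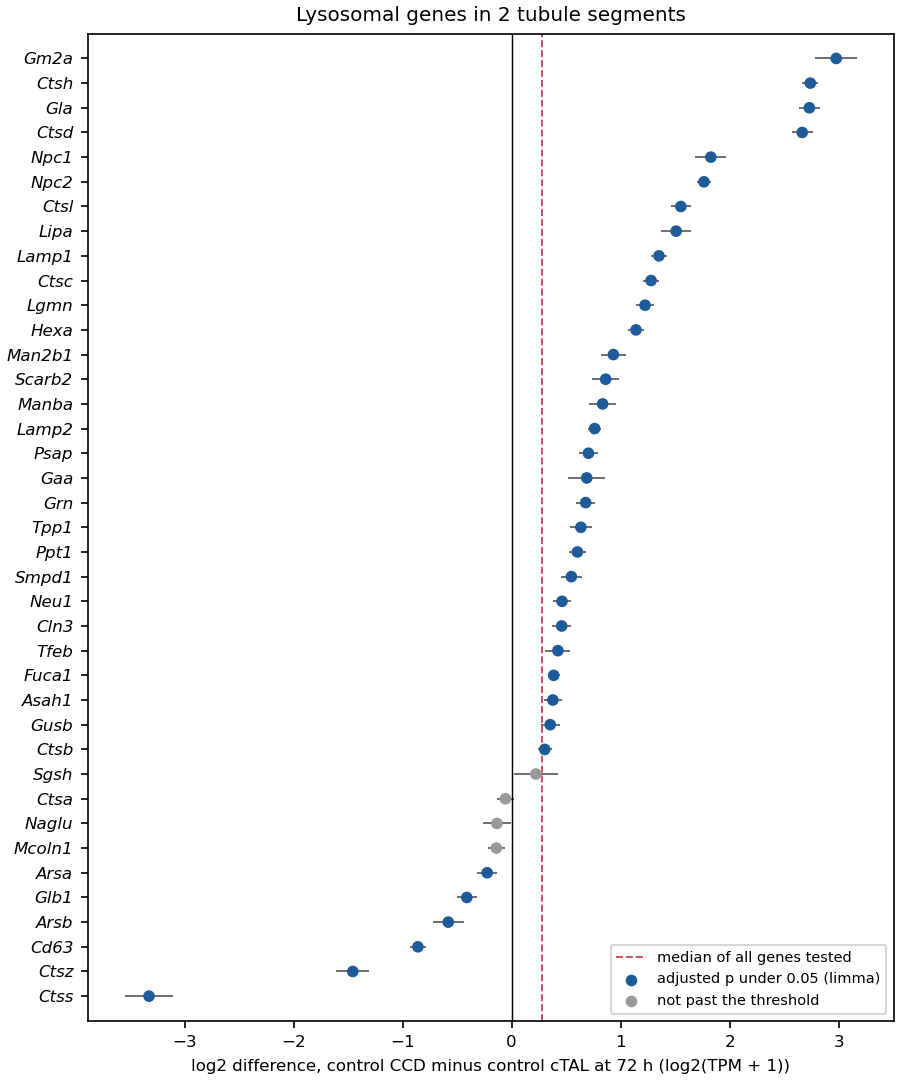
Each point is 1 lysosomal gene, placed by its log2 difference between control CCD and control cTAL at 72 h on the log2(TPM + 1) scale, with bars of 1 SE; the dashed line is the median of all genes tested, 0.28. Gm2a, Ctsh, Gla and Ctsd lie furthest to the right, between 2.67 and 2.98, and Ctss furthest to the left at -3.33.

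With each library set counted as 1 replicate, 31 of the 35 differences between segments were still called, 26 higher and 5 lower. Of all 11925 genes tested, 4083 were higher and 1619 lower in that setting, where control cTAL set 1 was a single library. In 23 genes all CCD set means lay above all cTAL set means, in 3 (Ctss, Ctsz and Cd63) below, and 13 overlapped. This overlap of set means was not counted over all genes. With median-of-ratios scaling, which lowers the median of all genes from 0.28 to 0.02, 23 genes were higher and 9 lower. Of all 11925 genes tested, 3614 were then higher and 3492 lower. Ctsb, Gusb, Fuca1, Asah1, Cln3 and Tfeb no longer passed, and the large differences named above did. Without control cTAL set 2, Gaa (0.39) and Tfeb (0.27) lost their calls, and Arsa lost its without any of 4 sets (control CCD set 1 or 4, control cTAL set 2 or 3).

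Lysosomal genes also differed among control CCD groups of different times. Among control groups at 12, 24, 36 and 72 h, 14 of the 39 genes (35.9%) differed by a moderated F test in limma, against a background of 13.8% of all genes tested. On the log2 scale, 13 of the 14 had their lowest mean at 72 h, the exception being Ctsl, lowest at 36 h, and 12 had their highest at 24 h. Ctsd had the largest range. At 12 h its level was 9303, 9440 and 9316 TPM. Values of 6220, 6244 and 5714 TPM followed after 24 h and of 4322, 4291 and 4435 after 36 h, and the 17 libraries after 72 h ran from 2313 to 5137 (median 3017). The libraries of each early time lay apart from those of the other early times, and those at 12 h made Ctsd number 5 among all genes. The mean fell by a log2 of 1.54 from highest to lowest (adjusted p 6.3e-10 in limma).

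The other proteases that differed were Ctsa (417 TPM at 24 h and 318 at 72 h), Lgmn (222 and 165) and Ctsl, which was 1087 TPM at 24 h and 532 at 36 h. Among glycosidases, Gaa differed most, at 111, 155 and 180 TPM at 24 h and from 30.1 to 125 (median 79.4) at 72 h, and the libraries of these times overlapped. Its range of means was a log2 of 0.99 (adjusted p 0.0024 in limma). Hexa fell from 614 TPM at 24 h to 439 at 72 h, Glb1 from 111 to 81.0, Gla from 249 to 181 and Naglu, a heparan sulfate glycosidase, from 33.1 to 21.3. Psap was highest at 12 h, at 1276 TPM, and lowest at 72 h, at 905. Grn fell from 723 TPM at 24 h to 528 at 72 h.

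Of the membrane proteins, Lamp1, Scarb2 and Mcoln1 differed over time. Lamp1 was 962, 1124 and 1208 TPM at 24 h and from 628 to 1043 at 72 h, where the ranges overlapped, and its means were 1098 and 868 TPM (adjusted p 0.030 in limma). Scarb2 was 23.1, 23.4 and 24.9 TPM at 24 h, above all 17 libraries at 72 h (7.05 to 21.3). Mcoln1 went from 63.8 to 49.9 TPM. Tfeb did not pass the test, with means from 42.9 TPM at 72 h to 49.9 at 24 h. Of the 7 genes with TCACGTG in their promoter, 5 differed over time, and of the 25 promoters without it, 7 did. This is a description of 32 genes. Hexa and Psap, which also differed over time, had no matched promoter and are in neither count.

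**Figure D2:**
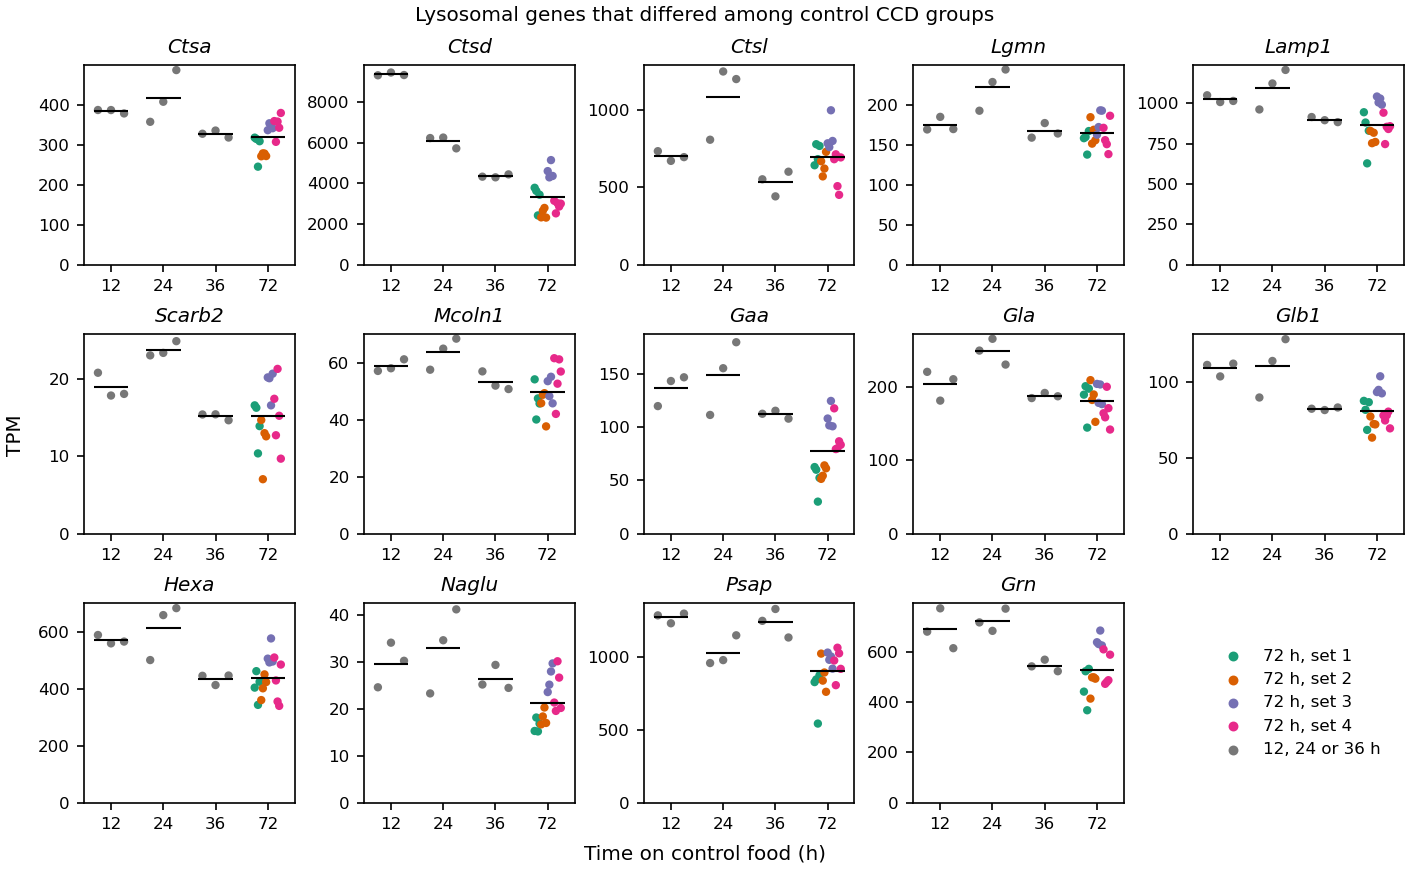
TPM of the 14 genes that differed among control CCD groups, by hours on control food; points are libraries, black lines are group means, and the 4 library sets at 72 h have their own colours. Ctsd steps down from a mean of 9353 TPM at 12 h to 3308 at 72 h, while the sets at 72 h lie apart from each other in genes such as Gaa.

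Each early time is a single library set, so set and time cannot be told apart there, and with set means as replicates none of the 14 calls held. The count rested on single libraries at 24 h as well: without replicate 2 at 24 h 9 genes were called and without replicate 3 only 6, while leaving out set 2 at 72 h gave 9 and leaving out set 3 gave 24. Ctsd, Ctsl, Gaa, Glb1, Hexa and Psap were called in each of these 4. Lgmn and Ctsa lost their calls without replicate 3 at 24 h, Grn also without set 2, and Scarb2 without any 1 of the 3 replicates at 24 h. Naglu, Lamp1, Mcoln1 and Gla lost theirs without replicate 2 or 3 at 24 h or set 2, among others. Proximal tubule markers moved with time too: the sum of 16 markers was 145 to 835 TPM at 12 h, 1028 to 2974 at 24 h, 164 to 309 at 36 h and 90.6 to 797 at 72 h, and 12 of 14 tested were called. Principal cell markers were called in 8 of 12, with sums of 20335 to 22328 TPM at 12 h and 12330 to 20456 at 72 h. The part of either in the lysosomal differences was not tested.

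For lithium in CCD, the share of lysosomal genes called in either direction was near that of all genes at 24, 36 and 72 h. At 12 h it was 20.5%, against 11.7% of all genes. More lysosomal genes were lower than higher at 12, 36 and 72 h, whereas all genes tested had more higher at each time. With quantile normalization all genes had more lower than higher at 36 h (2042 higher, 2471 lower) and at 72 h (2431 and 2852). The lysosomal genes were then 2 higher and 11 lower at 36 h, and 6 and 12 at 72 h. At 72 h, 16 of the 39 genes (41%) were called in limma, 6 higher and 10 lower, where the background was 37.3% of all genes tested (22.0% higher, 15.2% lower). The median difference of the 39 was a log2 of -0.05, beside -0.003 for all genes. No gene was free of overlap between its 17 control and 19 lithium libraries, as 2.02% of all genes tested were. The range of the 4 control set means was wider than the lithium difference in 35 of the 39 genes, and in 13 of the 16 called. The control set means of a gene spanned a median log2 of 0.47, and lithium differences had a median size of 0.17. These are unlike measures, because a range of 4 means of 4 or 5 libraries is readily wider than a difference of 2 group means. The comparison is a description and was not made over all genes. With set means as replicates none of the 16 calls held, where 1260 of all 11644 genes tested were called higher and 499 lower.

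The 10 lower genes were 2 of the 8 cathepsins, 3 of the 7 lipid-handling proteins, 2 of the 7 membrane proteins, 2 glycosidases and 1 sulfatase. Ctsh ran from 1374 to 2499 TPM (median 1950) in control and from 1303 to 1851 (median 1425) in lithium libraries, a log2 difference of -0.39 (SE 0.06, adjusted p 2.5e-06 in limma), the smallest adjusted p of the 16. Its highest control set mean was 2260 TPM and its lowest 1580, and 3 of the 4 lithium sets lay between 1409 and 1423. Smpd1, the acid sphingomyelinase, ran from 140 to 288 TPM (median 235) in control and from 143 to 256 (median 187) in lithium libraries, a difference of -0.31 (SE 0.08, adjusted p 0.0013). Gla, Manba and Arsa fell by 0.27, 0.34 and 0.33, Ctsl by 0.26, Npc1 by 0.28, Npc2 by 0.19 and Cln3 by 0.30. For Npc2 the control set means were 388 to 423 TPM and lithium set means 338 to 365, without overlap.

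Gm2a had the largest fall, a log2 of -0.48 (SE 0.17, adjusted p 0.020 in limma), and lithium set 4 held its lowest values. Controls ran from 281 to 499 TPM (median 354) and lithium libraries from 88.3 to 384 (median 317). The lowest 4 lithium libraries, from 88.3 to 130 TPM, were set 4, which is rich in short RNAs; the other 3 lithium sets had means of 313, 321 and 345 TPM, inside the range of the control sets, 302 to 473. Without that set the difference was -0.14 (adjusted p 0.12). In lithium cTAL, set 4, also rich in short RNAs, was again lowest, from 14.7 to 23.3 TPM. The 4 control cTAL libraries rich in short RNAs stood at 39.1 to 44.5. The means of the other control cTAL sets were 38.6 to 49.8, and their single libraries ranged wider.

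The 6 higher genes were Glb1, Gusb, Arsb, Lamp2, Fuca1 and Ppt1, with differences of 0.32, 0.33, 0.27, 0.20, 0.17 and 0.12. Gusb, beta-glucuronidase, ran from 19.7 to 31.4 TPM (median 24.3) in control and from 23.4 to 37.8 (median 30.1) in lithium libraries, and its lithium set means, 27.6 to 35.5, all lay above its control set means, 22.3 to 25.8 (adjusted p 1.5e-04 in limma). Lamp2 ran from 193 to 298 TPM (median 252) in control and from 242 to 331 (median 292) in lithium libraries, with set means of 236 to 277 and 280 to 297, again apart (adjusted p 9.0e-04). Lamp1, the sister protein, did not pass the test: medians were 855 and 864 TPM and the difference 0.02 (SE 0.06). Ctsd (0.16) and Ctsb (-0.08) did not pass either, and neither did Tfeb, with a difference of 0.21 (SE 0.09, adjusted p 0.077), lithium set 4 at 62.6 to 90.9 TPM and the other lithium libraries at 31.6 to 54.0.

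Calls at 72 h moved with single sets. Ctsh, Smpd1, Npc2, Cln3, Lamp2, Glb1 and Gusb were called whichever set was left out. Leaving out control set 1 left 3 higher genes and leaving out control set 3 left 6 lower genes. Npc1 lost its call without 4 of the 8 sets in turn and Ppt1 without 6, and Manba, Arsb, Gm2a, Ctsl, Gla, Arsa and Fuca1 each lost theirs without at least 1. Markers of the CCD cell types moved with lithium as well: 11 of 12 principal cell and 12 of 12 intercalated cell markers were lower, and 9 of 9 endothelial markers tested; the endothelial sum went from 28.1 to 270 TPM in control and from 11.7 to 100 in lithium libraries. Their part in the lysosomal differences was not tested.

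**Figure D3:**
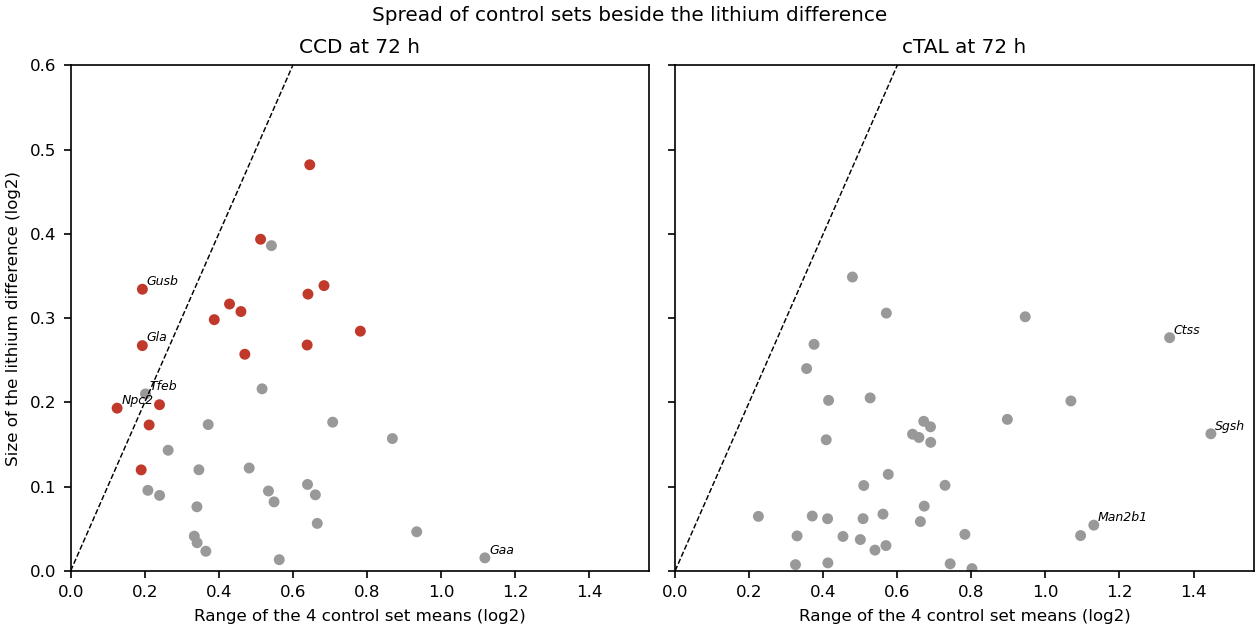
For each lysosomal gene, the range of its 4 control set means (x axis, log2) is set against the size of its lithium difference (y axis, log2) in CCD and in cTAL; red points were called, and the dashed line marks equal size. In CCD 4 genes (Gusb, Gla, Npc2 and Tfeb) lie above the line, and in cTAL none does.

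At 36, 24 and 12 h the lithium and control groups had 2 or 3 libraries each and are 1 library set each, so lithium and set cannot be told apart at these times. At 36 h 12 genes (30.8%) were called, 3 higher and 9 lower, against 34.8% of all genes (25.5% higher, 9.28% lower). Ctsh was 2282, 2528 and 2023 TPM in control and 1466, 1420 and 1457 in lithium libraries, a log2 difference of -0.65 (SE 0.09, adjusted p 1.8e-05 in limma). All lithium libraries lay below all controls. Psap fell from 1252, 1334 and 1137 TPM to 820, 899 and 833 (-0.54, SE 0.08), and Smpd1 from 277, 273 and 252 to 194, 192 and 191 (-0.47, SE 0.08), both without overlap. Neu1, Gla, Cln3, Manba, Arsa and Ctsd had differences of -0.38, -0.33, -0.32, -0.31, -0.30 and -0.25.

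Of these, the direction of Ctsd turned with quantile normalization, to 0.25. Arsb, arylsulfatase B of dermatan sulfate breakdown, was higher by 0.52 at 36 h (SE 0.12), with 42.1, 48.1 and 41.4 TPM in lithium libraries and at most 37.1 in controls. Mcoln1 was higher by 0.32 and Lipa by 0.24. With median-of-ratios scaling, which moved the median of all genes from 0.13 to -0.01, neither passed, with 1 gene higher and 15 lower. Of all 12069 genes tested, 2139 were then higher and 2019 lower. Leaving out control replicate 3 or lithium replicate 1 left 1 higher gene, Arsb. Ctsh, Psap, Smpd1, Neu1, Gla, Cln3, Ctsd and Arsb were called whichever library was left out. With all 8 CCD groups in 1 model, only Ctsh, Psap and Smpd1 of the 12 genes were still called. Manba and Arsa each lost their calls without 4 of the 6 libraries in turn, Lipa without 5 and Mcoln1 without 2. Of the 39 genes, 22 had no overlap between groups at 36 h, 7 of them higher, where 49.0% of all genes tested had none. Beside these results, 11 of 12 principal cell and 4 of 12 intercalated cell markers were lower with lithium at 36 h, and 0 were higher. Lower too were 3 of 6 thick ascending limb and 2 of 9 endothelial markers tested. Higher were 1 of 12 proximal tubule and 1 of 3 fibroblast and smooth muscle markers, and 0 of 13 leukocyte markers were called. The part of these cell types was not tested.

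At 24 h 11 genes (28.2%) were called, 6 higher and 5 lower, against 25.7% of all genes (19.9% higher, 5.77% lower). Ctsh was here higher with lithium: 2014, 1758 and 1734 TPM in control and 2381, 2325 and 2242 in lithium libraries, a log2 difference of 0.34 (SE 0.09, adjusted p 0.0078 in limma) without overlap. Ctsl was 808, 1250 and 1201 TPM in control and 766, 734 and 715 in lithium libraries (-0.53, SE 0.15), and it lost its call without control replicate 2 or 3 (-0.42 and -0.44). Scarb2 fell from 23.1, 23.4 and 24.9 TPM to 18.0, 16.1 and 16.3 (-0.48, SE 0.10). Npc2, Smpd1 and Gla had differences of -0.35, -0.32 and -0.25, and Arsb, Gusb, Ctsb, Grn and Ppt1 of 0.36, 0.31, 0.25, 0.24 and 0.21. With median-of-ratios scaling, which moved the median of all genes from 0.13 to -0.01, none of the 6 rises passed and 9 genes were lower. Of all 11909 genes tested, 1565 were then higher and 1430 lower.

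The counts at 24 h also hung on single libraries. Higher genes numbered 3 without control replicate 1, control replicate 2 or lithium replicate 2, and 2 without lithium replicate 3. Lower genes numbered 2 without control replicate 2, and 3 without control replicate 3 or any of the lithium replicates. Ctsh, Ctsb, Scarb2 and Smpd1 were called whichever library was left out, but each lost its call with all 8 CCD groups in 1 model, where Npc2 alone of the 11 genes was called; Arsb, Gusb, Grn, Ppt1, Npc2 and Gla each lost their calls without 4 or 5 of the 6 libraries in turn. Of the 39 genes, 14 had no overlap between groups, 7 of them higher, against 44.3% of all genes tested. Proximal tubule markers were lower with lithium at 24 h in 6 of 14 tested and higher in none, with sums of 1028 to 2974 TPM in control and 264 to 423 in lithium libraries. Principal cell markers were lower in 4 of 12 and higher in 1, and intercalated cell markers lower in 4 of 12. Mitochondrial transcripts made up 10.3% to 12.3% of TPM in control and 7.52% to 7.80% in lithium libraries. The part of these in the lysosomal differences was not tested.

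At 12 h 8 genes (20.5%) were called, 1 higher and 7 lower, against 11.7% of all genes (7.96% higher, 3.78% lower). Ctsd had the largest lithium difference of the 39 genes over these times. It was 9303, 9440 and 9316 TPM in control and 4159 and 4458 in lithium libraries, a log2 difference of -1.12 (SE 0.07, adjusted p 1.8e-07 in limma). Both lithium libraries lay far below all controls, near the 4291 to 4435 TPM of the control libraries at 36 h. Without lithium replicate 1, which is rich in short RNAs, the difference was -1.07 (adjusted p 6.6e-06). Gm2a was 372, 382 and 363 TPM in control and 312 and 221 in lithium libraries (-0.50, SE 0.12), and without lithium replicate 2 it was -0.26 and not called.

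Scarb2, Grn, Lamp2, Smpd1 and Psap were also called lower at 12 h, with differences of -0.46, -0.42, -0.32, -0.31 and -0.30. Lgmn was the only higher one, at 169, 185 and 170 TPM in control and 233 and 210 in lithium libraries (0.34, SE 0.09). Without lithium replicate 1 the calls of Scarb2, Grn, Psap, Smpd1 and Lgmn were lost. Lgmn was also lost without control replicate 1 or 3, Lamp2 without these or lithium replicate 2, and Psap without any of these. Leaving out control replicate 1 or lithium replicate 2 left 3 lower genes, and Ctsd was called whichever library was left out. Under median-of-ratios scaling the count was 0 higher and 10 lower, beside 814 higher and 703 lower of all 12016 genes tested. Ctsd was the sole call when only the 2 groups at 12 h were fitted (adjusted p 0.0047 in limma) and with all 8 CCD groups in 1 model (adjusted p 0.0023). Of the 39 genes, 21 had no overlap between groups at 12 h, 6 of them higher, against 34.5% of all genes tested. Principal cell markers moved with lithium at 12 h in 6 of 12 (4 lower, 2 higher), with sums of 20335 to 22328 TPM in control and 14923 to 17417 in lithium libraries. Leukocyte markers were lower in 3 of 14 tested, with sums of 208 to 438 TPM in control and 94.4 to 199 in lithium libraries. The part of either in the lysosomal differences was not tested.

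Across the 4 times, 25 genes were called at least once and 14 at no time: 1 gene at 4 times, 3 at 3, 13 at 2 and 8 at 1. Smpd1 was the gene called at all 4, lower each time, by -0.31, -0.32, -0.47 and -0.31 from 12 to 72 h. In control libraries it was 278, 278 and 256 TPM at 12 h and 278, 287 and 335 at 24 h, and in lithium libraries 218 and 217, and 261, 219 and 240. The acid sphingomyelinase it encodes turns sphingomyelin into ceramide. Its call at 12 h was lost without control replicate 1 or 2 or either lithium replicate, and those at 24, 36 and 72 h were kept whichever library or set was left out. With all 8 CCD groups in 1 model its calls at 12 and 24 h were lost (adjusted p 0.58 and 0.28 in limma). Gla was called lower at 24, 36 and 72 h and had -0.26 at 12 h, and Arsb was called higher at 24, 36 and 72 h. Ctsh, Lamp2 and Grn were called in opposite directions at different times. Lamp1, the most used marker of the compartment, was called at none, with differences between -0.02 and 0.05, and Tfeb at none, with 0.28, 0.08, 0.31 and 0.21 from 12 to 72 h.

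**Figure D4:**
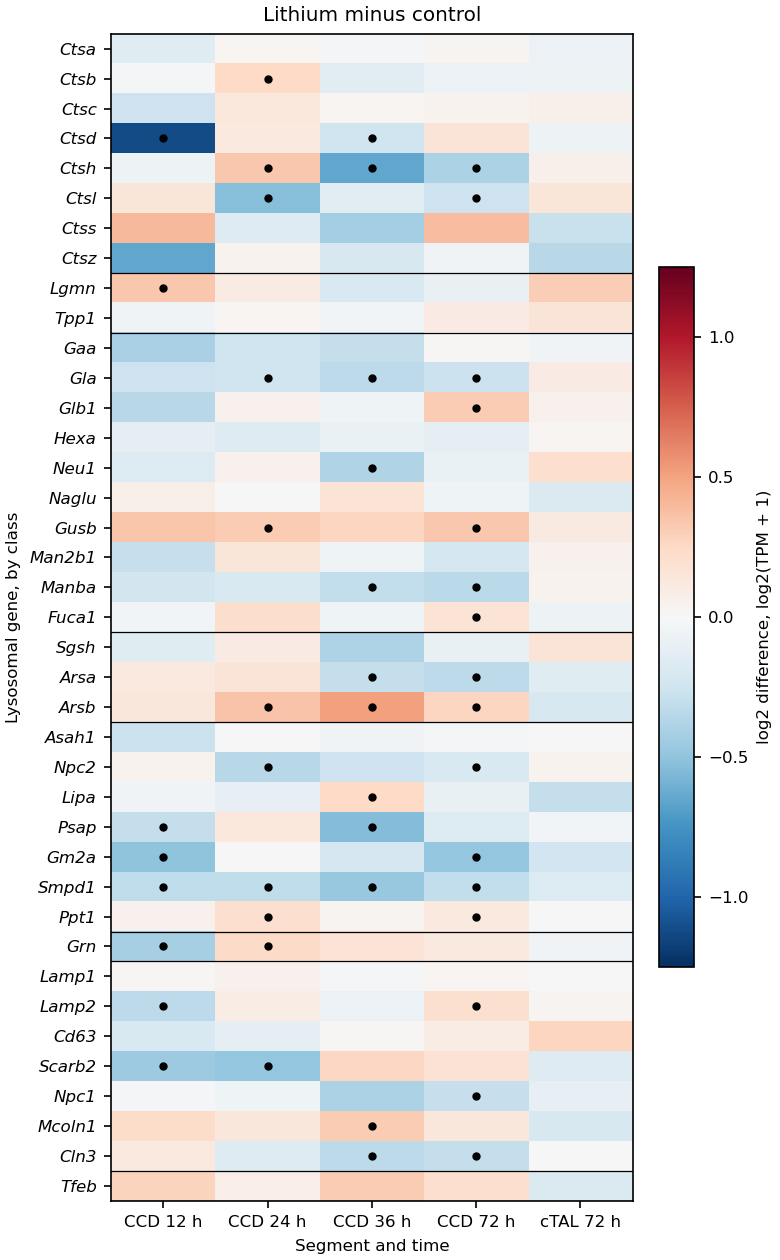
Colours give the lithium minus control difference on the log2(TPM + 1) scale for the 39 genes (rows, grouped by class) in CCD at 4 times and in cTAL; dots mark adjusted p under 0.05 in limma. Ctsd at 12 h is the darkest cell at -1.12, Smpd1 has a dot at each CCD time, and the cTAL column has none.

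A test of the lithium difference over the 4 times in CCD called 4 genes (10.3%) in limma, against 8.43% of all genes tested: Ctsh (adjusted p 6.7e-04), Ctsd (0.0015), Lamp2 (0.010) and Glb1 (0.031). Ctsd had differences of -1.12, 0.12, -0.25 and 0.16 from 12 to 72 h. Ctsh had -0.06, 0.34, -0.65 and -0.39, Lamp2 -0.32, 0.09, -0.07 and 0.20, and Glb1 -0.35, 0.05, -0.06 and 0.32. None held with set means as replicates, and Lamp2 and Glb1 were lost without lithium replicate 2 at 12 h, which left 2 calls. Smpd1 was not called by this test (adjusted p 0.96).

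In cTAL no lysosomal gene was called for lithium at 72 h in limma, against 0.701% of all genes tested (0.111% higher, 0.59% lower), and no gene was free of overlap, against 0.0171% of all. Differences ran from -0.35 for Ctsz to 0.31 for Lgmn, with a median of -0.01, beside -0.08 for all genes. At an unadjusted p under 0.05 there were 3 genes, Cd63 (0.27), Lgmn (0.31) and Neu1 (0.21). Without lithium set 3 Cd63 was called (0.30, adjusted p 0.049). Lamp1 was 214 to 449 TPM (median 350) in control and 276 to 404 (median 337) in lithium libraries, and Ctsd 390 to 643 (median 534) and 404 to 560 (median 486). Control sets spanned more than the lithium difference in 39 of 39 genes. The limit given for CCD holds more strongly here, because control cTAL set 1 was a single library and not a mean. Among only the 7 libraries rich in short RNAs, 1 gene was called higher, Cd63 (0.34), and 5 lower: Gm2a (-1.10), Ctsz (-1.03), Ctss (-0.99), Lipa (-0.62) and Ctsa (-0.38), where 6.27% of all genes tested were called (1.24% higher, 5.03% lower).

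The lithium difference itself was compared between segments at 72 h. It differed for 5 genes (12.8%) in limma, against 15.3% of all genes tested (11.8% higher in CCD, 3.44% lower): Ctsh by -0.46 (SE 0.11, adjusted p 0.0010), Ctsl by -0.41, Lgmn by -0.40, Mcoln1 by 0.35 and Fuca1 by 0.24, CCD minus cTAL. For Ctsh, lithium medians were 1425 against 1950 TPM in CCD and 310 against 304 in cTAL. Lgmn was not called in either segment alone, with -0.10 in CCD and 0.31 in cTAL. Ctsh and Lgmn were called whichever set was left out, whereas Ctsl, Mcoln1 and Fuca1 were not, and none held with set means. With median-of-ratios scaling 0 genes were higher and 9 lower, and with quantile normalization 0 and 8. Of all 13083 genes tested, 1109 were higher and 857 lower with the former, and 1168 and 1049 with the latter. The number of higher genes ran from 0 to 7 with sets left out: 7 without control cTAL set 2, 4 without control CCD set 3, 1 without control cTAL set 3 or lithium cTAL set 1, and 0 without control CCD set 1 or 2, lithium CCD set 3 or 4, control cTAL set 4 or lithium cTAL set 2. The number of lower genes was 5 without control CCD set 1 or control cTAL set 1. This comparison shares its libraries with those of each segment.

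**Figure D5:**
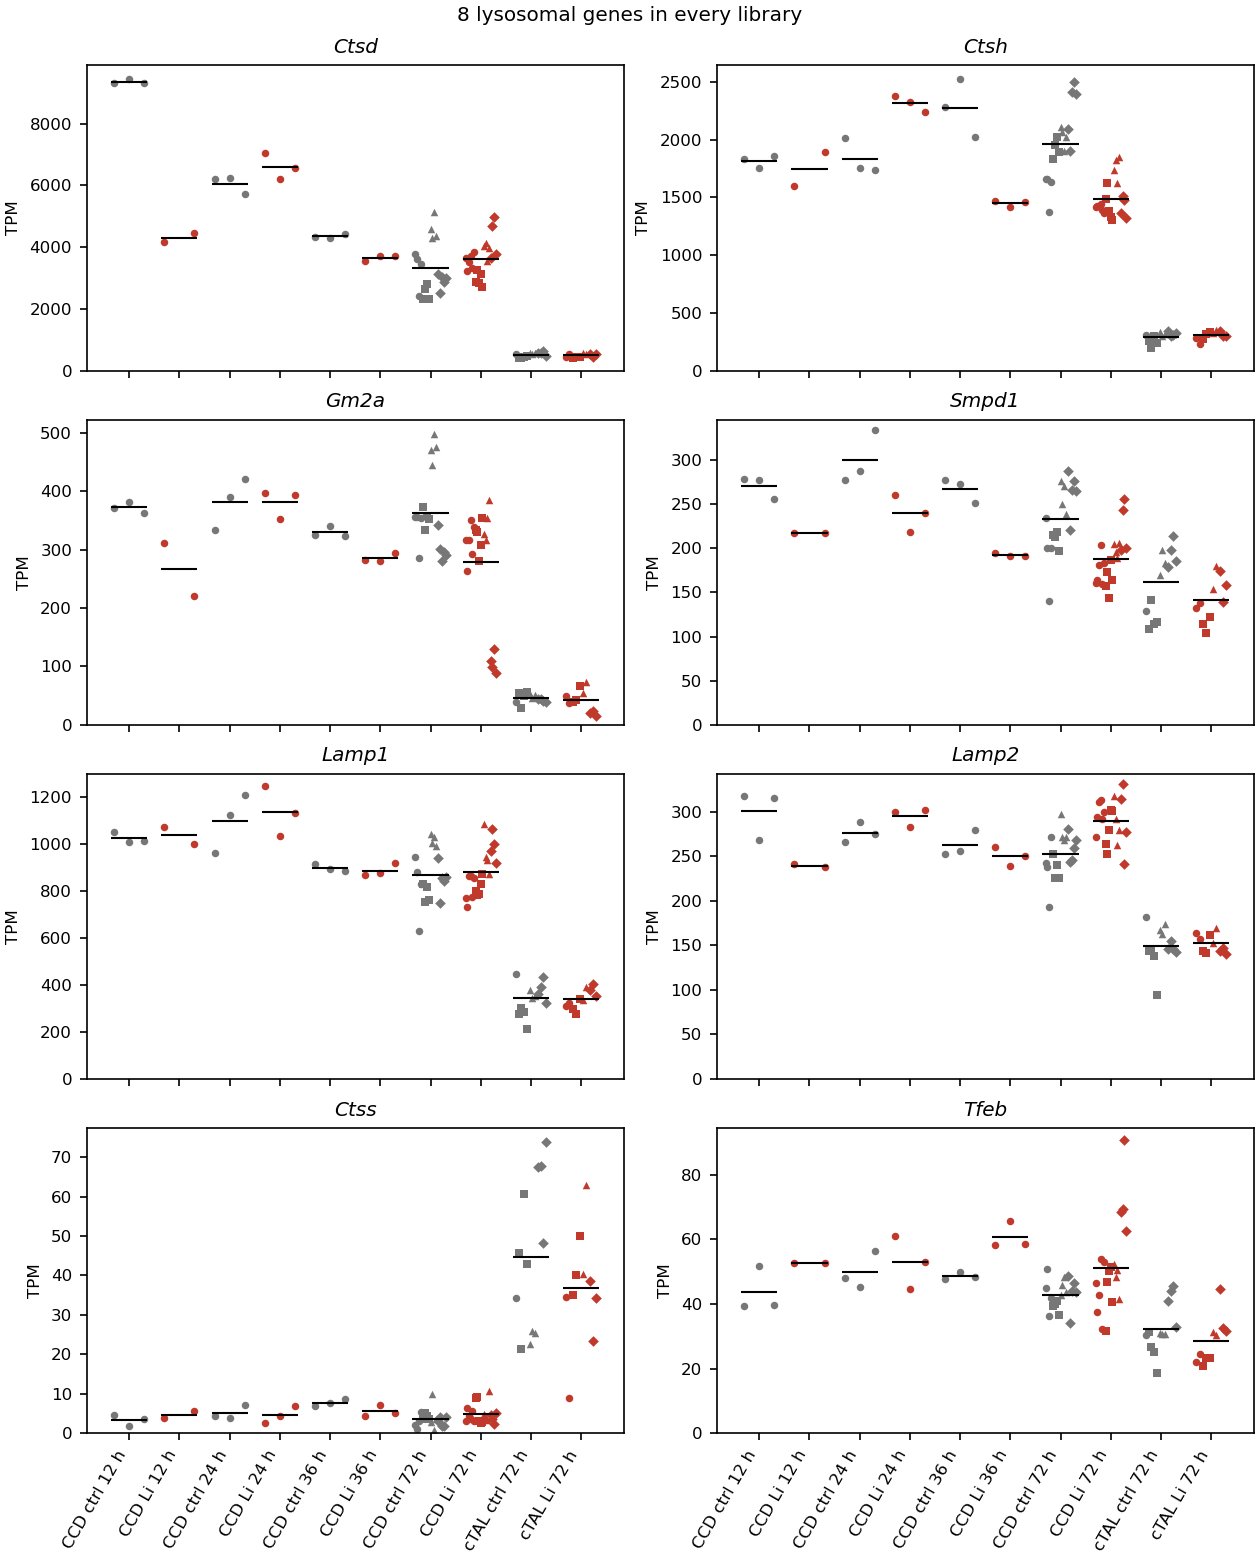
TPM of 8 lysosomal genes in each of the 75 libraries, by group (grey control, red lithium; ctrl, control; Li, lithium); black lines are means, and circles, squares, triangles and diamonds mark library sets 1 to 4 of a group. Ctsd is highest in control CCD at 12 h, the 4 lithium CCD diamonds of Gm2a lie at 88.3 to 130 TPM, and Ctss is higher in cTAL than in CCD.

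Other genes of the pathway were read from lists of lysosomal enzymes, membrane proteins, sorting and TFEB control. In controls, 18 of 24 further lysosomal enzymes tested differed between segments (15 higher in CCD), 12 of 23 further membrane proteins (10 higher) and 14 of 17 sorting genes (14 higher), beside the 68.4% of all genes given above. Among 20 genes that control TFEB or belong to its family, 8 were higher and 2 lower; Tfe3, a close relative of Tfeb, was higher by 0.65 and Mitf and Fnip2, a partner of folliculin, were lower by -0.63 and -1.67. For lithium in CCD at 72 h, 4 enzymes were higher and 8 lower of 24, 2 membrane proteins higher and 4 lower of 23, and 1 sorting gene higher and 4 lower of 17. Of the 20 TFEB control genes, 1 was lower at 72 h, 1 lower at 36 h, 3 lower at 24 h and 0 at 12 h, with 0 higher at each time. Of 21 autophagy genes, 3 were higher and 10 lower at 72 h. Beside these lithium counts, the share of all genes called was 37.3% at 72 h, 34.8% at 36 h, 25.7% at 24 h and 11.7% at 12 h.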

How the data were processed

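Gene expression was measured as TPM (transcript level relative to the library total, corrected for length) in 75 libraries. The authors deposited 1 TPM table of 32754 genes; reads were aligned with STAR 2.5.2b and quantified with RSEM 1.2.31 on Rnor_6.0, per the submitters' processing notes. TPM keeps no read depth, so the depth of each library is unknown and only the spread between libraries limits precision. Groups follow the labels. The 39 genes and the lists of other genes were chosen with earlier results of these data known.

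Values were tested as log2(TPM + 1) with limma 3.58.1 (R 4.3.3, moderated tests with a mean trend), for genes at 1 TPM or more in as many libraries as the smallest group, with Benjamini-Hochberg adjustment over all genes tested and a threshold of 0.05. The lithium differences at 12, 24 and 36 h came from 1 joint fit of the 6 early CCD groups, the segment difference and its interaction with lithium from 1 model with all 4 groups of 72 h, and the tests over time from 1 model with all 8 CCD groups. Tests of a difference were two-sided. Fold changes on this scale understate low genes. The scripts were tested on simulated data. Tables and figures were made with Python 3.11.15, pandas 2.3.3, numpy 2.4.6, scipy 1.17.1 and matplotlib 3.10.9.

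The genes named were those called in a comparison, the 8 with the largest change in each lithium comparison, and Tfeb, Lamp1, Lamp2, Ctsd and Ctsb; of each other list up to 3 called genes could be named. Alternatives were median-of-ratios scaling, quantile normalization, other pseudocounts, no filter, robust variance shrinkage, set means as replicates, other groups in the fit, the replicate number as a block, and leaving out replicates. Leaving out library sets or libraries rich in short RNAs was chosen after seeing the data.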

Additional observations from a re-analysis of the deposited data

Results flagged for a closer look

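Dixon's test for an outlying library was run on lithium cTAL alone, and the other groups were not searched. In lithium cTAL, 4 of the 39 genes had 1 library far from the other 9, where chance alone gives about 1 in 20. Ctss was 9.02 TPM in replicate 2, with the others at 23.3 to 62.9. Ctsz was 26.3 TPM in replicate 9, with the others at 55.8 to 106. Lgmn was 124 TPM in replicate 6, with the others at 75.8 to 92.6, and Neu1 was 37.7 TPM in replicate 1, with the others at 52.9 to 72.4.

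The lithium difference differed between CCD and cTAL for 5 genes by the interaction test in limma: Ctsh by -0.46 (adjusted p 0.0010), Ctsl by -0.41 (0.023), Lgmn by -0.40 (0.0090), Mcoln1 by 0.35 (0.032) and Fuca1 by 0.24 (0.031). It differed between times in CCD for 4 genes by the moderated F test in limma, with adjusted p 6.7e-04 for Ctsh, 0.0015 for Ctsd, 0.010 for Lamp2 and 0.031 for Glb1.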

How the results depend on the processing

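With set means as replicates, 0 lysosomal genes were called for lithium at 72 h in either segment, for the interaction, or over time, whereas 31 of 35 segment calls remained. Of all genes, 1260 were then higher and 499 lower for lithium in CCD at 72 h, and 437 and 48 for the interaction. At 36, 24 and 12 h set means could be fitted only with all 8 CCD groups in 1 model and 1 set in each early group. This changes both choices together and called 0 lysosomal genes. That model on single libraries called 0 higher and 3 lower genes at 36 h, then 0 and 1 both at 24 h and at 12 h; with only the 2 groups compared, 0 and 1 at 12 h. Under median-of-ratios scaling 1 lysosomal gene was higher and 15 lower at 36 h, beside 2139 and 2019 of all 12069 genes. The pair was 0 and 9 at 24 h, beside 1565 and 1430 of 11909, and also for the interaction, beside 1109 and 857 of 13083. None (0) was higher at 12 h, beside 814 of 12016. Quantile normalization gave 12 lower at 12 h, beside 768 of all genes. For the interaction it gave 0 higher and 8 lower, beside 1168 and 1049 of all genes. It turned Ctsd at 36 h to 0.25 (adjusted p 0.020 in limma) from -0.25. With no filter on low values, 3 were higher at 24 h, where more genes are tested (2242 of all 18977 were higher). Without the libraries rich in short RNAs, 0 were higher at 12 h, beside 1025 of all genes. For the interaction 0 were then higher and 5 lower, beside 985 and 369 of all genes. Among only those libraries of cTAL, 1 was higher and 5 lower, beside 145 and 589 of all genes. The cause of these changes was not tested.

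Leaving out 1 replicate or set at a time gave 3 to 9 higher and 6 to 11 lower genes for lithium in CCD at 72 h. The ranges at 36 h were 1 to 3 and 7 to 9, those at 24 h 2 to 5 and 2 to 7, and those at 12 h 0 to 1 and 3 to 8; in cTAL 0 to 1 were higher. The interaction gave 0 to 7 higher and 2 to 5 lower, the segment difference 27 to 29 and 5 to 7, the control time course 6 to 24, and lithium over time 2 to 5.

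The labels do not say whether samples with the same replicate number share more than the number. Deviations of such pairs had a correlation over 0.1 in 5 of 17 CCD pairs of 72 h and 0 of 3 pairs of 36 h. The same held in 1 of 3 pairs of 24 h, 1 of 2 pairs of 12 h and 3 of 10 cTAL pairs. With the replicate block, 5 CCD genes were higher and 10 lower at 72 h; the 36 h counts were 4 and 9, the 24 h counts 6 and 5, the 12 h counts 0 and 3, and the cTAL counts 0 and 0. In every comparison of 3 or more pairs, 1 sample correlated best with its own number.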
